A study of Mus musculus with 4 samples.

Results

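Matrix-binding integrins are the cell-surface receptors that hold cells to collagen, laminin, fibronectin and vitronectin, and 10 of their subunit genes were examined in mouse lungs carrying 4T1 triple-negative breast cancer (TNBC) metastases after ADC/cmLumiOpto treatment. The members were chosen by gene symbol, as Itga2, Itga11, Itga3, Itga6, Itga5 and Itgav for the α subunits and Itgb1, Itgb3, Itgb4 and Itgb5 for the β subunits. They make up 10 of the 56748 genes counted, and 10 of 10 are among the 15320 genes that passed the filter on low counts.

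The samples were 2 from saline-treated mice and 2 from mice given the ADC/cmLumiOpto combination, sequenced as bulk messenger RNA. Both groups were female BALB/cJ mice with an intact immune system, 7 weeks old when 4T1-FLuc cells, a luciferase-bearing mouse TNBC line, were injected into the tail vein. The ADC is the antibody-drug conjugate CD276-DM1, which carries the microtubule poison mertansine to cells with CD276, and cmLumiOpto is an AAV gene therapy, packed in antibody-coated exosomes, that expresses a light-gated channel in mitochondria under a cfos promoter and is switched on by the luminescent substrate ViviRen. No sample received the ADC alone or cmLumiOpto alone, so their parts in any difference cannot be told apart. The sample titles name saline, as the study's methods do, but the treatment label of the same samples gives PBS. The labels also give 16 mg/kg of ADC, the abbreviation Olap in the treatment, and 4T1 tumor cells harvested from the lung at 3 weeks, whereas the study's methods give 8 mg/kg and dissociated lung tissue, from mice killed once they had lost a set share of body weight.

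Integrins work as pairs of an α and a β chain that cross the cell membrane. The α chain largely sets the ligand, and the β tail recruits talin, kindlin and the adhesion proteins that tie the receptor to actin or, for α6β4, to keratin. In carcinoma cells these receptors serve attachment, migration and survival signals from the matrix, and in normal lung they anchor epithelium, endothelium and fibroblasts to basement membranes and interstitial matrix.

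Integrin α5β1, the main fibronectin receptor, is made from Itga5 and Itgb1, and these partners had log2 fold changes of -0.91 and -0.29 between the groups, a difference that was not tested. The 250 bases upstream of the annotated start of each gene are shown because they set the α subunit with the smallest p beside the shared β1 chain. The sequences are from RefSeq on GRCm38.p6, read 5′ to 3′ on the gene's own strand, for Itga5 at chr15:103366792-103367041 on the minus strand and for Itgb1 at chr8:128685404-128685653 on the plus strand. Capitals mark the SP1 motif GGGCGG and the TEAD motif CATTCC on whichever strand they occur.
Itga5: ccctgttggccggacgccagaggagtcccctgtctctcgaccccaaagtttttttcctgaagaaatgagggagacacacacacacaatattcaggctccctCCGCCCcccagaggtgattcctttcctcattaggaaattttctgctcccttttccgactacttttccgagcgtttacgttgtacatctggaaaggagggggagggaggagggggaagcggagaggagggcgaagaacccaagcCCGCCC
Itgb1: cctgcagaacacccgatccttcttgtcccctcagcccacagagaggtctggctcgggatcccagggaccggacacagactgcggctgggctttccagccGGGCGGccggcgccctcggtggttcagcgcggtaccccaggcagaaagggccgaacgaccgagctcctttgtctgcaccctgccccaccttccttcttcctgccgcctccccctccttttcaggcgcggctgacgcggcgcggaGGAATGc
Both stretches hold GC-box letters, in 2 places for Itga5 and in 1 for Itgb1, and Itgb1 has in addition 1 TEAD match close to the start. Windows of 300 bases, from 250 before to 50 after the start, were present for 7 of the 10 members (Itga3 with 2 windows), and Itga6, Itgb3 and Itgb4 had no entry. GGGCGG was found in 6 of these 7 members (all but Itga11), where 35.7% of 32851 promoter windows of the same length hold it. CACCTG, an E-box, was found in 3 (Itga11, Itga3 and Itgb5), against 20.2% of windows. TGANTCA, the AP-1 motif, was found in the second Itga3 window alone (7.81% of windows), CATTCC in Itgb1 alone (14.7%), and TATAAA in 0 of 7 (13.6%). The GC content was 52.3% in the second Itga3 window and ran from 58.7% to 68.0% in the other member windows, with a median of 52.7% over all windows. The motif shares are per window, whereas members are counted per gene, and they were not matched for GC content. These are matches of letters on either strand, and none shows that a factor is bound.

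Marker RNA of normal lung differed between the samples, and the tumor share of each sample was not measured. The epithelial keratins and adhesion genes listed as carcinoma markers (Epcam, Krt7, Krt8, Krt14, Krt18, Krt19, Cdh1) were well detected in every sample. They summed to 3001 and 3353 CPM (counts scaled to the TMM-adjusted library size) in saline and 2955 and 2873 CPM after treatment. How much of that RNA came from tumor and how much from normal lung epithelium was not measured. Alveolar epithelial genes, such as those for surfactant proteins, which mark normal lung, were also present, with 6 summed markers at 1597 and 357 CPM in saline and 5720 and 4892 CPM after treatment. Every library thus held alveolar RNA, saline sample 2 the least, and in bulk RNA fewer cells of a type and less RNA per cell cannot be told apart. Total counts ran from 15263375 to 19675436 per sample, replicates correlated at r = 0.982 in saline and 0.976 after treatment on log2 CPM across genes, and 3 counts, taken as the floor, amount to 0.146 to 0.202 CPM for counting error only. The p-values below measure the spread between these samples, 2 of the 4 per group that the study's methods give.

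All 10 members had a negative log2 fold change, as did 48.0% of the 15320 genes tested. In 9 of the 10 (all but Itgb5) the higher treated sample lay below the lower saline sample, where 28.8% of genes did so. With p-values adjusted over all genes (edgeR's quasi-likelihood test), 0 of 10 passed 0.05, but 0% of all genes did so, the smallest adjusted p in the table being 0.116. At an unadjusted p under 0.05, 3553 genes were called, 1863 lower and 1690 higher. Among the members 5 were lower, against 12.2% of all genes, and 0 were higher, against 11.0%. Those 5 were α subunits (Itga2, Itga3, Itga5, Itga6 and Itgav), so 5 of 6 α and 0 of 4 β subunits were past that p. The median log2 fold change was -0.49 over the members and 0.03 over all genes, with -0.63 for the α subunits and -0.30 for the β subunits. The difference between α and β subunits was not tested.

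How far those counts go depends on the fit. With saline sample 2 left out 1 member (Itga5) was lower at the unadjusted p, in a fit where the share of all genes lower at that p was also smaller, 5.09% in place of 12.2%. With the trend of the values on gene length removed the count was 1 as well, again Itga5, where 9.87% of genes were lower. Under upper-quartile scaling, 1398 genes were lower and 2146 higher at the unadjusted p, and 4 members were lower. Under other tests and without the filter, adjusted calls appeared. The edgeR exact test called 1 member, Itga5 (3.62% of genes called lower), DESeq2 called Itga5 and Itga6 (4.55% of 14164 genes), and the quasi-likelihood test without a filter called the same pair (4.05% of 25563 genes).

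**Figure D1:**
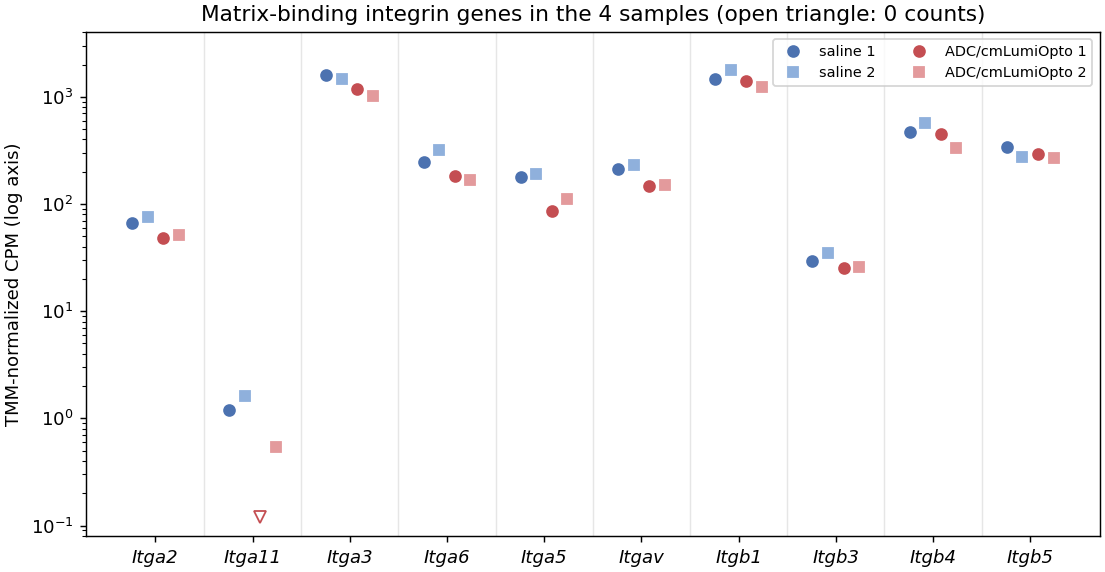
TMM-normalized CPM of the 10 integrin genes on a log axis, 1 point per sample, with saline in blue and ADC/cmLumiOpto in red, circles for sample 1 and squares for sample 2 of a group. The red points lie below the blue ones in every gene but Itgb5, and the open triangle marks the treated sample with 0 counts of Itga11.

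The collagen receptors were represented by Itga2 and Itga11. Itga2 (ENSMUSG00000015533, chr13:114969617-115068636 on mm39, minus strand), the α chain of the epithelial and platelet collagen receptor α2β1, measured 66.1 and 74.8 CPM in saline and 48.1 and 51.4 CPM after treatment. Both treated samples were below both saline samples, and the replicates of each group lay close together. The log2 fold change was -0.50 (SE 0.163, unadjusted p = 0.0194, adjusted p = 0.153 by edgeR's quasi-likelihood test). Itga11 (ENSMUSG00000032243, chr9:62585108-62691264, plus strand), the α chain of a fibroblast receptor for fibrillar collagen, was close to the limit of detection, with 19 and 24 reads in saline and 0 and 11 after treatment. In CPM it measured 1.19 and 1.62 in saline and 0 and 0.536 after treatment. The groups did not overlap, but the fitted log2 fold change of -2.30 (SE 1.07, unadjusted p = 0.0725, edgeR adjusted p = 0.251) depends on the prior count through the sample at 0 and became -1.37 without that sample. Without the other treated sample the fit gave -7.51 against a lone sample at 0 counts, a value set by the prior count that is no bound on the change.

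Laminin receptors were represented by Itga3 and Itga6. Itga3 (ENSMUSG00000001507, chr11:94935300-94967627, minus strand), whose product pairs with β1 and binds laminins of epithelial basement membranes, was the most abundant α member, at 1600.3 and 1456 CPM in saline and 1178 and 1024 CPM after treatment. The lower saline sample stood above the higher treated sample by more than the replicates of either group differed. Its log2 fold change was -0.47 (SE 0.172, unadjusted p = 0.0306, edgeR adjusted p = 0.177). Itga6 (ENSMUSG00000027111, chr2:71575960-71688760, plus strand), which forms α6β1 or, in epithelia, the hemidesmosome receptor α6β4, measured 244 and 321 CPM in saline and 182 and 169 CPM after treatment. The groups were separate, although the saline samples of Itga6 differed from each other by more than the nearest samples of the groups did. The log2 fold change was -0.69 (SE 0.189, unadjusted p = 0.00939, edgeR adjusted p = 0.127), and the adjusted p ran from 0.0115 without a filter to 0.562 across the alternatives.

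Receptors for the RGD sequence of fibronectin and vitronectin were represented by Itga5 and Itgav. Itga5 (ENSMUSG00000000555, chr15:103252713-103275190, minus strand) measured 180.0 and 189 CPM in saline and 85.1 and 111 CPM after treatment. Apart from the sparse Itga11, no member had a larger negative log2 fold change, and the gap between the groups exceeded the spread within both. From 185 ± 6.62 to 98.0 ± 18.2 CPM (mean ± SD, n = 2 each), the log2 fold change was -0.91 (SE 0.188, unadjusted p = 0.00221, edgeR adjusted p = 0.116), a fitted change of -46.9%. Across the alternatives the fold change of Itga5 stayed between -1.12 and -0.74 and its adjusted p ran from 0.000443 without a filter to 0.398. Itgav (ENSMUSG00000027087, chr2:83554741-83637260, plus strand), the α chain shared by αvβ3 and αvβ5, which also activates latent TGF-β in other pairings, measured 212 and 230.0 CPM in saline and 147 and 152 CPM after treatment. The replicates were tight and the groups well apart, with a log2 fold change of -0.56 (SE 0.155, unadjusted p = 0.00945, edgeR adjusted p = 0.127). With the gene-length trend removed the value for Itgav was -0.29 (unadjusted p = 0.0896). At 10744 bases it is the longest member.

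The β subunits sat nearer to 0. Itgb1 (ENSMUSG00000025809, chr8:129412135-129459681, plus strand), the partner of most matrix-binding α chains, measured 1451 and 1763 CPM in saline and 1401 and 1231 CPM after treatment. The treated samples were lower, but saline sample 1 and treated sample 1 were close, and the log2 fold change of -0.29 (SE 0.184, unadjusted p = 0.165, edgeR adjusted p = 0.379) did not pass either threshold. Itgb4 (ENSMUSG00000020758, chr11:115865535-115899238, plus strand), the hemidesmosome chain that pairs with α6, measured 472 and 568 CPM in saline and 449 and 333 CPM after treatment, a log2 fold change of -0.41 (SE 0.206, unadjusted p = 0.0901, edgeR adjusted p = 0.278). Here too the groups were apart by less than the treated samples differed from each other, and the value for Itgb4 became -0.64 (unadjusted p = 0.0138 by edgeR) without treated sample 1, -0.22 without treated sample 2 and -0.27 without saline sample 2. Itgb3 (ENSMUSG00000020689, chr11:104498826-104561302, plus strand), the partner of αv and of the platelet chain αIIb, was low at 29.1 and 35.0 CPM in saline and 25.4 and 26.04 CPM after treatment, a log2 fold change of -0.32 (SE 0.187, unadjusted p = 0.137, edgeR adjusted p = 0.343). Itgb5 (ENSMUSG00000022817, chr16:33650035-33769708, plus strand), which with αv makes a vitronectin receptor, measured 340.0 and 274 CPM in saline and 294 and 268 CPM after treatment. Its groups overlapped, the log2 fold change was -0.13 (SE 0.176, unadjusted p = 0.499, edgeR adjusted p = 0.697), and the sign turned to 0.03 without saline sample 1.

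**Figure D2:**
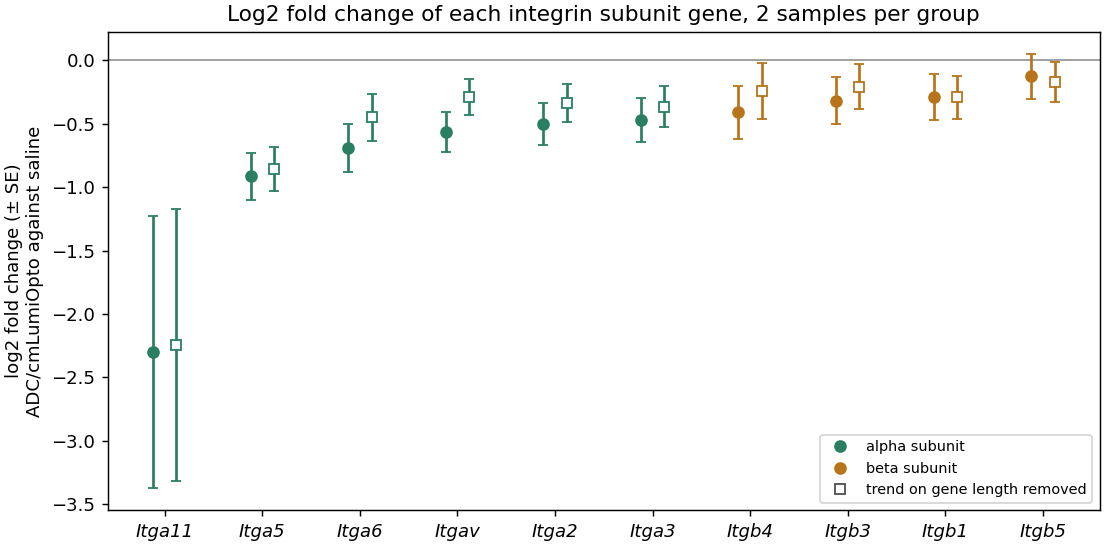
Log2 fold change of each subunit, ADC/cmLumiOpto against saline, with bars of 1 standard error from edgeR's quasi-likelihood fit, α subunits in green and β subunits in brown, and open squares for the fit with the gene-length trend removed. Every filled point is below 0, from -0.13 for Itgb5 to -2.30 for Itga11, and removing the trend moves Itgav and Itga6 toward 0 while Itga5 goes from -0.91 to -0.86.

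Gene length moved with the comparison as a whole. Over the 15320 genes, log2 fold change and length had a Spearman rho of -0.34, given as a description across genes that share the same libraries, and 8 of the 10 members were longer than the median tested gene of 4113 bases. With the trend removed, the members' median was -0.31, all 10 values were negative, and the groups did not overlap in 8 members (all but Itgb4 and Itgb5), against 27.2% of genes in that fit. In that edgeR fit Itga5 measured -0.86 (unadjusted p = 0.00226), Itga6 -0.45 (unadjusted p = 0.0507), Itga3 -0.37 (unadjusted p = 0.0616) and Itga2 -0.34 (unadjusted p = 0.0643).

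On a scale that allows genes to be compared (CPM per kb of gene length), Itgb1 led in saline with a mean of 394, followed by Itga3 with 268. Itgb5 and Itgb4 came next in saline at 86.4 and 74.2, and their sample ranges overlapped, so that their order is not resolved. Then came Itga5 at 37.4, Itga6 at 30.9, Itgav at 20.6, Itga2 at 9.88, Itgb3 at 5.44 and Itga11 at 0.273 CPM per kb, each with a range apart from its neighbour's. After treatment the order of the means was the same, from 322 for Itgb1 and 193 for Itga3 down to 0.0523 for Itga11. Itga5 and Itga6, at 19.9 and 19.2 CPM per kb, now overlapped, whereas Itgb5 (79.2) and Itgb4 (55.8) did not.

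Within each sample, the shares of the subunits in the summed RNA of the α or β members need no scaling between libraries. They leave the gene-length trend in and leave the other integrin subunits out. Itga3 supplied 75.2% and 70.7% of the summed α member counts per kb in saline and 78.2% and 74.2% after treatment, and these ranges overlapped. Itga5 supplied 9.79% and 10.6% in saline and 6.54% and 9.29% after treatment, lower in both treated samples. Among α subunits, Itga11 was the other whose share did not overlap (0.0621% and 0.0874% against 0% and 0.0432%), while the shares of Itga2, Itga6 and Itgav overlapped. On the β side Itgb1 held 67.9% and 72.5% in saline and 69.4% and 70.3% after treatment, and all 4 β shares overlapped between the groups. Shares give no test here, since 2 against 2 samples cannot go below a two-sided exact permutation p of 0.333.

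**Figure D3:**
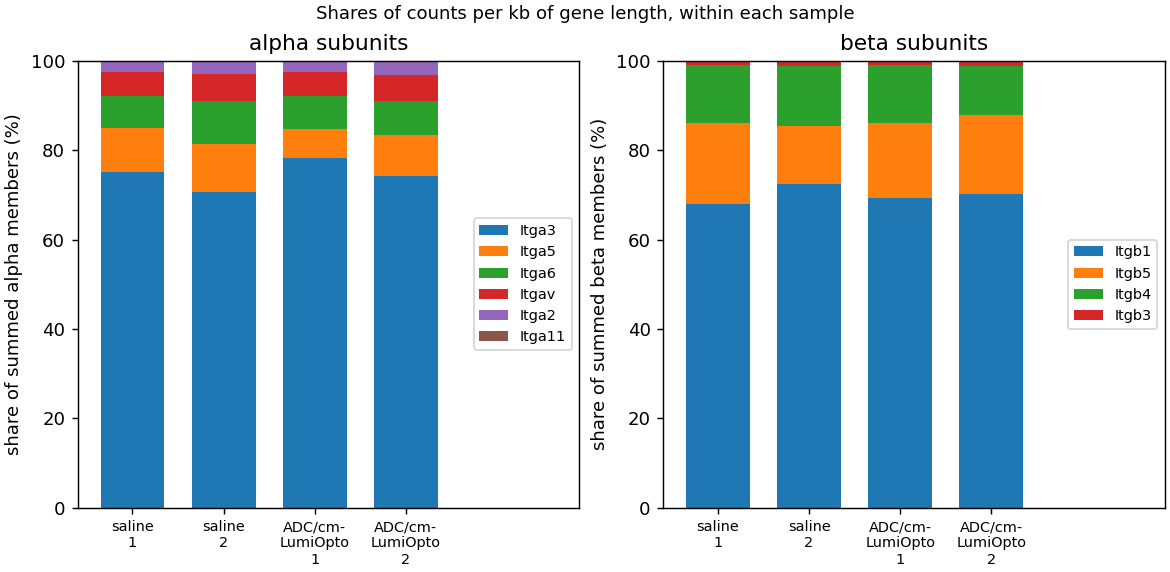
Share of each subunit in the summed counts per kb of the 6 α members (left) and the 4 β members (right), in percent, with 1 stacked bar per sample. Itga3 and Itgb1 fill most of every bar, and the Itga5 block is narrower in the treated samples (6.54% and 9.29%) than in saline (9.79% and 10.6%).

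Ratios of partner chains restate the contrast of α with β from the same counts, within samples and with the gene-length trend left in. With that trend removed, the median log2 fold change was -0.41 for the α subunits and -0.22 for the β subunits. Itgav and Itgb1 then both had -0.29. Summed α over summed β counts per kb was 0.712 and 0.605 in saline and 0.534 and 0.564 after treatment, lower in both treated samples. Itga5 over Itgb1 was 0.103 and 0.0889 in saline and 0.0503 and 0.0745 after treatment, and Itga6 over Itgb1 was 0.0750 and 0.0814 against 0.0579 and 0.0612. The ratio of Itga3 to Itgb1, in contrast, overlapped, with saline sample 1 at 0.788 and the other 3 samples between 0.590 and 0.601. For the hemidesmosome pair, Itgb4 over Itga6 was 2.53 and 2.30 in saline and 3.22 and 2.57 after treatment, higher in both treated samples by less than the treated samples differed from each other. Itgav over Itgb3 was 3.99 and 3.60 in saline and 3.17 and 3.20 after treatment, and Itgav over Itgb5 was 0.206 and 0.278 against 0.165 and 0.187.

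The integrin subunits outside the group did not share its direction. Of 10 other matrix-binding subunits, 5 were higher and 5 lower, with a median log2 fold change of 0.19, and at the unadjusted p 4 were higher and 1 lower (11.0% and 12.2% of all genes). With the length trend removed 8 were higher and 2 lower, with a median of 0.37. Itga8, a mesenchymal receptor chain for nephronectin, measured 12.0 and 6.67 CPM in saline and 23.9 and 17.6 CPM after treatment (log2 fold change 1.15, SE 0.346, edgeR adjusted p = 0.141). Itgb7, a lymphocyte chain, measured 18.1 and 12.3 against 34.5 and 21.1 CPM (0.87 on the log2 scale, SE 0.318, edgeR adjusted p = 0.179). The other 3 past the unadjusted p, named after their values were seen, were Itgb6 at 1.32, the platelet chain Itga2b at 1.08 and Itgb8 at -1.03. All of these were expressed far below Itga3 and Itgb1, at no more than 34.5 CPM.

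Leukocyte integrins had positive log2 fold changes, and none passed the adjusted test of the main fit, which 0% of all genes passed. Itgax passed 0.05 in another fit (lowest adjusted p over the edgeR and DESeq2 alternatives 5.28e-06), whereas Itgam and Itgb2 did so in none. Of 6 genes 5 were tested (Itgad had at most 0.0488 CPM), 5 of 5 were higher, 0 at the unadjusted p, and the median was 0.63. Itgal, the α chain of LFA-1, had a log2 fold change of 0.63 (SE 0.355) and Itgax, of dendritic cells and macrophages, 1.22 (SE 0.530). Itgae, of tissue-resident T cells, had 1.27 (SE 0.709), Itgam, of myeloid cells, 0.15 (SE 0.469), and Itgb2, the shared leukocyte β chain, 0.27 (SE 0.243). Of these 5, Itgal and Itgax had groups that did not overlap. The other 3 turned negative with 1 sample left out, Itgam to -0.72, Itgb2 to -0.08 and Itgae to -0.02 at the lowest.

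Most matrix ligands were lower alongside their receptors. All 7 collagen chains were lower, 7 of 7 at the unadjusted p against 12.2% of genes, with a median of -1.25. Col5a1, a fibril-nucleating collagen, went from 368 and 358 CPM to 125 and 128 CPM (log2 fold change -1.52, SE 0.153, edgeR adjusted p = 0.116), and Col1a1, the main chain of collagen I, had a log2 fold change of -2.02 (SE 0.238, edgeR adjusted p = 0.116). Neither passed this adjusted test, but 0% of all genes did. Both passed 0.05 in other fits, with a lowest adjusted p over the edgeR and DESeq2 alternatives of 1.85e-22 for Col1a1 and 2.76e-11 for Col5a1. With the length trend removed 0 genes passed it. Of 11 laminin chains 10 were lower, 6 at the unadjusted p (12.2% of all genes) and 0 higher at it, with a median of -0.59. With the length trend removed 8 laminin chains were lower, 2 of them at the unadjusted p, and the median was -0.35, whereas 6 of the 7 collagens were lower at that p. Lamc1, the γ chain of most laminins, measured 530 and 628 CPM in saline and 295 and 351 CPM after treatment (-0.84, SE 0.181, edgeR adjusted p = 0.116), and Lamb1 had the same log2 fold change of -0.84 (SE 0.209, edgeR adjusted p = 0.123).

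Ligands with an RGD site were split, 6 lower and 4 higher of 10, with a median of -0.58. At the unadjusted p 5 were lower and 2 higher (12.2% and 11.0% of all genes). Those 2, named after their values were seen, were Vtn and Edil3, at no more than 2.24 and 2.78 CPM. Tnc, the matricellular protein tenascin-C, measured 183 and 124 CPM in saline and 56.1 and 41.3 CPM after treatment (log2 fold change -1.66, SE 0.257, edgeR adjusted p = 0.116). Ibsp, bone sialoprotein, measured 24.6 and 37.3 CPM against 9.97 and 8.97 CPM (-1.71, SE 0.269, edgeR adjusted p = 0.116). Fn1, fibronectin itself and the ligand of α5β1, was looked up after the values were seen. It measured 11321 and 12017 CPM in saline and 7032 and 6776 CPM after treatment, a log2 fold change of -0.76 (SE 0.178, unadjusted p = 0.00444, edgeR adjusted p = 0.123).

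Inside the cell, 18 of 23 activators and adaptors were lower, 10 at the unadjusted p with 1 higher (12.2% and 11.0% of all genes), and the median was -0.42. With the length trend removed 5 adaptors were lower and 3 higher at that p. Vcl, vinculin, which links talin to actin, measured 121 and 136 CPM in saline and 51.4 and 63.7 CPM after treatment (log2 fold change -1.16, SE 0.184, edgeR adjusted p = 0.116). Bcar1, the adhesion scaffold p130Cas, measured 148 and 156 CPM against 74.5 and 91.3 CPM (-0.88, SE 0.176, edgeR adjusted p = 0.116). Of 3 inhibitors, Itgb1bp1 (ICAP-1), which binds the β1 tail in competition with talin, was higher at 18.9 and 23.1 CPM in saline and 36.8 and 32.7 CPM after treatment (0.73, SE 0.198, unadjusted p = 0.00891, edgeR adjusted p = 0.126). Sharpin, which binds α tails, had 0.13 (SE 0.251) and Dok1, which binds β tails, -0.30 (SE 0.189).

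Tetraspanins, membrane proteins that travel with laminin-binding integrins, did not lean with them. All 5 had positive log2 fold changes, 0 at the unadjusted p, with a median of 0.32, and the values were 0.30 for Cd151, 0.35 for Cd9, 0.06 for Cd81 (which turned negative without treated sample 1 and with the length trend removed), 0.32 for Cd82 and 0.33 for Cd63. The groups overlapped for all of them but Cd82. Across the alternatives the lowest values were 0.05 for Cd151, 0.06 for Cd9 and 0.04 for Cd63. The hemidesmosome partners of α6β4 were lower in 3 of 4. Plec, plectin, which ties β4 to keratin, measured 604 and 805 CPM in saline and 390 and 437 CPM after treatment (log2 fold change -0.77, SE 0.197, edgeR adjusted p = 0.123). Dst, whose products include the BP230 linker, had -0.62 (SE 0.240, edgeR adjusted p = 0.193) for the whole gene. Col17a1, at no more than 2.76 CPM, had -1.35 (SE 0.523, edgeR adjusted p = 0.193), whereas Cd151 is the fourth. With the length trend removed 0 of the 4 were past the unadjusted p. The values were then -0.39 for Plec, -0.11 for Dst, -1.23 for Col17a1 and 0.17 for Cd151.

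**Figure D4:**
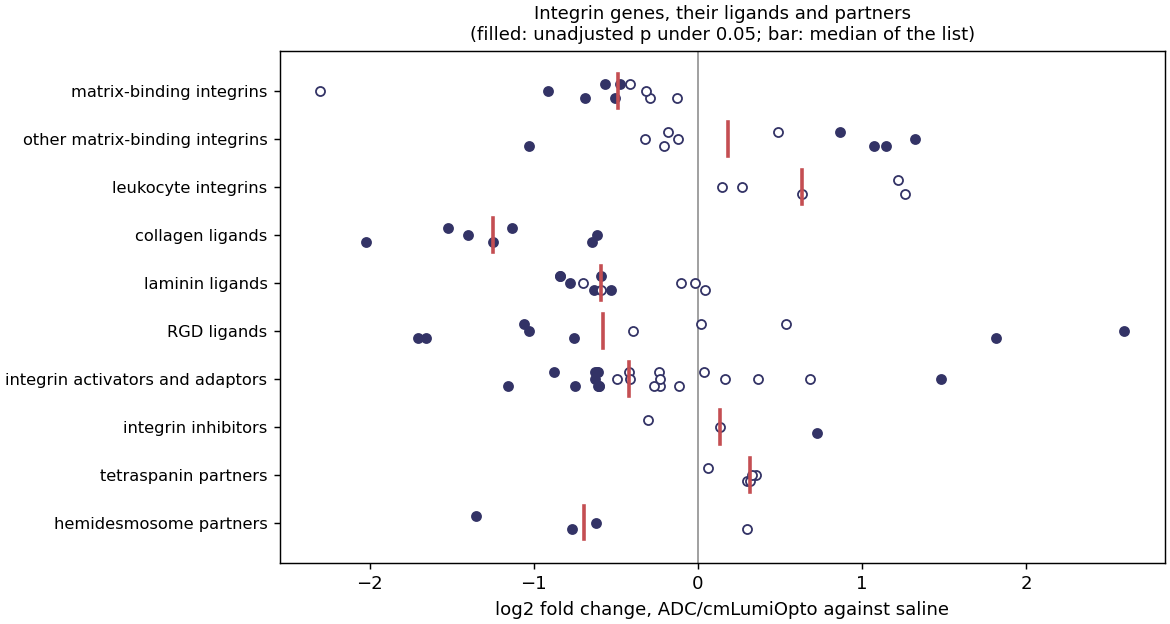
Log2 fold change of each tested gene in the 10 integrin-related lists, ADC/cmLumiOpto against saline, 1 point per gene, filled where the unadjusted edgeR p is under 0.05, with a bar at the median of the list. Members, collagens (median -1.25), laminins and adaptors lie mostly to the left of 0, and leukocyte integrins (0.63) and tetraspanins (0.32) to the right.

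Cell-type markers moved alongside these groups. Fibroblast markers, which include Col1a1 and Col1a2 of the collagen list, summed to 3672 and 2467 CPM in saline and 1093 and 952 CPM after treatment, with 5 of 6 lower and 1 (Tcf21) higher at the unadjusted p, which is also the threshold of the counts that follow. Over all genes, 12.2% were lower and 11.0% higher at that p. Most of the fibroblast sum was Col1a1 (2058 and 1362 CPM in saline, 437 and 405 CPM after treatment) and Col1a2 (1246 and 767 against 442 and 322 CPM). Pdgfra measured 211 and 240 against 119 and 139 CPM, and Dcn 126 and 91.9 against 79.6 and 74.4 CPM. Lum overlapped between the groups. Mural markers summed to 230 and 249 CPM against 157 and 137 CPM, with 2 of 5 (Acta2 and Pdgfrb) lower at the unadjusted p. Acta2 alone measured 126 and 148 against 89.7 and 52.2 CPM. In log2 fold change 3 of the 5 were lower and 2 higher, Myh11 at 0.21 (SE 0.267) and Tagln at 0.44 (SE 0.624). Of the alveolar markers, 5 of 6 were higher at the unadjusted p. The leukocyte list, at 2129 and 1441 CPM in saline and 4710 and 2960 CPM after treatment, had 2 of 5 tested markers higher at it. Most of that sum was 1 of these 2, Lyz2, at 1687 and 1128 CPM in saline and 4299 and 2447 CPM after treatment. The other was Ptprc, whereas Cd3e, Itgam and Csf1r overlapped between the groups. The endothelial list overlapped between the groups (470 and 380 against 462 and 687 CPM, 2 of 6 higher at the unadjusted p), as did the platelet list (15.1 and 29.1 against 24.1 and 33.2 CPM), whose cells carry αIIbβ3. Of the 7 epithelial genes listed as carcinoma markers 1 (Krt14, lower) was past the unadjusted p, with a median log2 fold change of -0.05. With the length trend removed 3 of them were lower at that p, with a median of -0.29. The part of these cell types in the lower integrin levels was not tested.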

How the data were processed

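RNA was measured in lungs with 4T1 metastases from 2 saline and 2 ADC/cmLumiOpto mice. The authors aligned reads with HISAT2 and deposited raw counts per gene without normalization, and the counting program and strand setting were not given in the sources used here. The submitters' processing notes name mm39 and the study's methods GRCm38. Of the 10 members, 0 have their GRCm38 positions in the table, so positions are given as deposited, as mm39. Genes overlapping members held at most 17 counts.

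The analysis used edgeR 4.0.16 in R 4.3.3 with filterByExpr (minimum count 10, minimum total 15; 15320 genes kept, 31185 without a count), TMM, estimateDisp, glmQLFit and glmQLFTest, a prior count of 0.125 and Benjamini-Hochberg adjustment at 0.05 over all genes. Alternatives were DESeq2 1.42.0, the exact test, 2 other scalings, 2 other filters, a block, removal of a lowess trend (span 0.3) on gene length, and each sample left out. The procedure was tested on simulated data. Total counts (15263375 to 19675436) limit precision only for Itga11. Promoters were RefSeq windows of GRCm38.p6, matched by symbol.

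The members, gene lists and tests were chosen with earlier results of these data known. Named are all members and, in each other list, the 2 tested genes with the smallest unadjusted p, or all genes of lists of 6 or fewer, with exceptions stated. Marker lists are given by counts and summed CPM.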

Additional observations from a re-analysis of the deposited data

How the results depend on the processing

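The number of members past an adjusted p of 0.05 was 0 and moved to 2 with DESeq2, 1 with the edgeR exact test, 2 without a filter and 1 with the replicate block. The number lower at the unadjusted p was 5 and fell to 1 with the length trend removed, and ran from 1 (without saline sample 2, 5.09% of all genes lower) to 6 (without treated sample 2, 12.8%) with each sample left out. The median log2 fold change, -0.49, became -0.40 with upper-quartile factors and -0.31 with the length trend removed, and ran from -0.57 (without saline sample 1) to -0.44 (without saline sample 2). Of 119 alternative values of single members, 112 kept their direction and their side of an adjusted p of 0.05. Without TMM, with upper-quartile factors, with at least 10 counts in every sample and with the length trend removed, 0 genes passed it. No member could therefore cross it in those fits, and their values do not test how stable the members are. Across all alternatives 6 values passed it. These were Itga5 with DESeq2 (-0.9197), the exact test (-0.9144), no filter (-0.9201) and the replicate block (-0.9265), and Itga6 with DESeq2 (-0.6938) and no filter (-0.6938). The 1 that reversed was Itgb5, which ran from -0.2706 (without saline sample 2) to 0.0261 (without saline sample 1). Members with groups apart and lower numbered 7 to 9 across scalings and filters, where 20.9% to 28.8% of all genes were so. The count of 7 came with upper-quartile factors, where the share of all genes was 23.7%. The labels number the samples but state no pairing of the mice. Deviations of same-numbered samples correlated at r = 0.0985 over 15320 genes, which with 2 samples per group cannot exclude a pairing. The replicate block raised the genes called from 0 to 607, with 1.95% of genes lower and Itga5 at an adjusted p of 0.0406. With 1 sample left in a group, that sample was assumed to vary like the other group. The causes of these shifts were not tested. Depth limits Itga11, for which the sample at 0 counts allows up to 0.170 CPM.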

Other observations

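Among the focal-adhesion kinases and linkers not named above, all chosen after their values were seen, Ptk2 (FAK) measured 164 and 197 CPM in saline and 109 and 124 CPM after treatment, a log2 fold change of -0.63 (SE 0.176, edgeR adjusted p = 0.131). Src measured 126 and 144 CPM against 71.5 and 89.6 CPM (-0.75, SE 0.187, edgeR adjusted p = 0.123). Among the adaptors, Lims2 (PINCH2) was the only gene higher at the unadjusted p, at 4.31 and 3.71 CPM in saline and 8.39 and 14.0 CPM after treatment (1.48, SE 0.364, edgeR adjusted p = 0.123). Its widely expressed relative Lims1 had a log2 fold change of -0.23 (SE 0.157). Of the kindlins, Fermt1, the epithelial form, was lower (-0.61, SE 0.200, unadjusted p = 0.0205, edgeR adjusted p = 0.155), while Fermt2 measured -0.11 (SE 0.171) and the blood-cell form Fermt3 0.37 (SE 0.197). Thbs1, thrombospondin-1, measured 640 and 860 CPM in saline and 302 and 418 CPM after treatment (-1.06, SE 0.235, edgeR adjusted p = 0.116), and Spp1, osteopontin, 4706 and 5593 against 8870 and 6051 CPM (0.53, SE 0.240, edgeR adjusted p = 0.240).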
